A study of Rattus norvegicus with 8 samples.

Results

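The genes described here encode the respiratory chain of mitochondria, and were read from liver arrays of cirrhotic rats given an antiangiogenic treatment or vehicle. They were taken by symbol, as every gene named by a probe set with a single symbol that begins with Nduf followed by a, b, c, s or v, with Sdh followed by a, b, c or d, with Uqcr, with Cox followed by 4, 5, 6, 7 or 8, or with Atp5. The rule found 90 genes on 101 probe sets, of 14217 genes with a single symbol, and each gene was represented by its probe set with the highest mean over the 8 arrays. Not all of them are subunits of the chain. They comprise 71 subunits of complexes I to V in the forms common in liver, the ATP synthase inhibitor Atp5if1, 10 assembly factors, 7 isoforms or paralogues known mainly from other tissues, and 1 entry named as a pseudogene. A further 7 probe sets that carry a matching symbol beside another one were left out, so that Cox7a2, Uqcrb, Ndufs5, Ndufa10, Atp5mc1 and Atp5mc2 have no value here.

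All 8 animals were male Wistar rats with cirrhosis from inhaled carbon tetrachloride (CCl4), a toxin of hepatocytes, and their drinking water held 0.3 g/L phenobarbital, which induces drug metabolism in liver. By the sample titles 4 livers came from rats given vehicle, called untreated in the series description, and 4 from rats given the antiangiogenic treatment, with no compound or dose named in its labels. Rats without cirrhosis are not among the samples, so that a difference shows treatment within cirrhosis and not cirrhosis itself. RNA of each frozen liver was hybridized to an Affymetrix Rat2302 array, and the values used are those the authors deposited, on a log2 scale after robust multi-array average (RMA). Values after ± are SDs over the 4 arrays of a group, and each difference is the treated mean less the vehicle mean in log2 units.

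The respiratory chain passes electrons from NADH and succinate to oxygen and uses the energy to pump protons across the inner mitochondrial membrane. Complex I (NADH dehydrogenase) and complex II (succinate dehydrogenase) feed electrons to coenzyme Q, complex III hands them to cytochrome c, complex IV (cytochrome c oxidase) reduces oxygen, and complex V (ATP synthase) makes ATP as protons flow back. Hepatocytes hold many mitochondria and depend on the chain for urea and glucose synthesis. A few subunits of the chain are encoded by mitochondrial DNA and are outside the rule, so that all genes below are nuclear.

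The arrays of vehicle 4 and treated 3 were nearly identical. The scaled median absolute deviation of their difference over 31042 probe sets was 0.166, against 0.251 to 0.404 in the 27 other pairs of arrays, and over the 90 genes their median absolute difference was 0.038, against 0.081 to 0.228. The labels name them as samples of different groups, and whether they come from separate livers, or whether 1 of them is mislabelled or a repeat, was not tested. Either would change the group means and the number of samples behind each difference. Without both, the median difference of the 90 genes was 0.07, with 63 higher and 0 called. The labels name no batch, and levels of bioB and bioC, bacterial transcripts added as controls, were used to sort the arrays into 3 inferred sets, called hybridization groups here, with vehicle 1 and treated 1 in the first, vehicle 4 and treated 3 in the third and the other 4 arrays in the second. Array medians lay between 5.16 and 5.30. Of the markers of cells that a liver sample could hold, the 8 hepatocyte genes averaged 13.27 to 13.46 on the vehicle and 12.94 to 13.41 on the treated arrays. Of these hepatocyte genes 6 of 8 were lower in treated livers, where 6885 of all 14217 genes were lower. The 7 endothelial genes averaged 6.81 to 8.04 and 6.74 to 7.11, with 7 of 7 lower in treated livers, and the 8 stellate cell and myofibroblast genes 8.08 to 9.40 and 7.26 to 8.95, with 8 of 8 lower. Bile duct genes were lower for 4 of 4, T and B cell genes for 3 of 4 and red blood cell genes for 2 of 2, and the macrophage genes for 4 of 5. On vehicle 4, a near-identical array, the endothelial genes averaged 6.81, against 8.00 to 8.04 on the other vehicle arrays. The red blood cell genes averaged 7.01 on vehicle 4 against 8.21 to 8.52, and the T and B cell genes 4.58 against 5.09 to 5.28. For these lists vehicle 4 lay within the range of the treated arrays. The part of these cells in the values below was not tested, and in whole tissue fewer cells of a type and less RNA per cell cannot be told apart.

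Respiratory chain genes were at nearly the same level in treated and vehicle livers. None of the 90 passed an adjusted p of 0.05 in limma (0 of 90), where the same fit called 0 of 31042 probe sets (0%) and 1220 had an unadjusted p under that value. The smallest adjusted p among the 90 was 0.979. The median difference was 0.05, with 62 genes higher and 28 lower, and the median over all 14217 genes was 0.006. Most members were bright, and the 71 with a mean of at least 9 had a median of 0.05, with 70.4% higher. The 2502 other genes with such a mean had a median of 0.033, with 56.4% higher. The mean over the 90 genes was 9.83 to 10.05 on the vehicle and 9.97 to 10.04 on the treated arrays, so that the treated range lay within the vehicle range. For 81 of the 90 genes the 95% interval of the difference lay within a 1.5-fold change in either direction, and for 88 it lay within 2-fold. At an unadjusted p under 0.05, 1 member was higher (background 1.95% of genes) and 1 was lower (background 2.8%). These 2 became 0 without vehicle 2 or without treated 2, and 1 without vehicle 3, treated 1 or treated 3. They became 3 without treated 4, 6 without vehicle 4 and 7 with array weights. The share over all genes is not given for these other fits, so that their counts are no result about the members. Without vehicle 4 the whole series moved too, with 11 probe sets called at an adjusted p of 0.05 in limma. The groups did not overlap for 1 gene higher in treated livers (background 0.992%) and for 0 genes lower (background 0.626%), where each group holds 1 of the near-identical arrays.

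**Figure D1:**
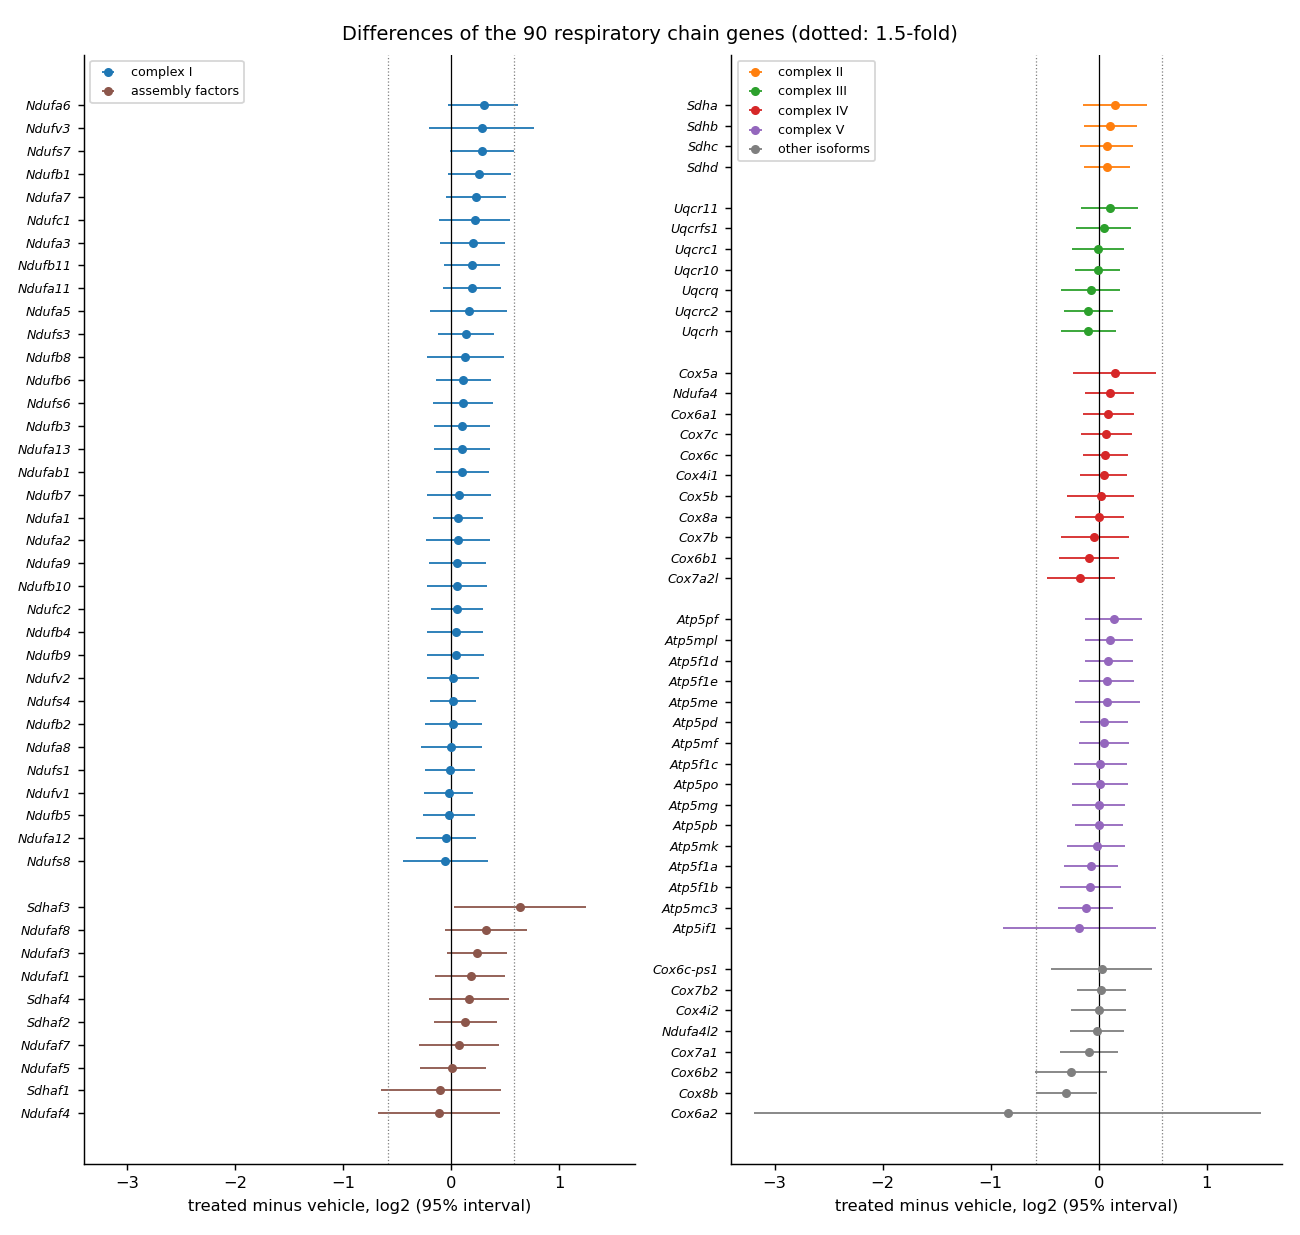
Treated minus vehicle difference on the log2 scale (horizontal axis) with its 95% interval from limma for each of the 90 genes, ordered within complexes I to V, assembly factors and other isoforms. The points of the 71 common subunits lie between −0.17 and 0.30, and the widest interval, of Cox6a2, runs from −3.19 to 1.5.

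The size of this small shift depended on the scaling and on the array of vehicle 2, and its median stayed above 0 under the alternatives run, although not within each hybridization group. With quantile normalization of the deposited values 50 of 90 genes were higher and the median was 0.009, and with median centring 73 were higher and the median was 0.104, where centring moved the median of all genes to 0.060. Without vehicle 2 the median was 0.010, with 51 of 90 genes higher, and without vehicle 1 it was 0.083, with 70 higher. Within the hybridization groups it was −0.025 for vehicle 1 and treated 1, 0.104 for the group with vehicle 2, and 0.002 for vehicle 4 and treated 3. The value of vehicle 1 and treated 1 compares 1 array with 1 and has no measure of spread. Vehicle 4 and treated 3 are the near-identical arrays, so that a small median follows from their likeness and is no result about treatment. The same limits hold for the values by hybridization group below, which are given in this order.

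Vehicle 2 stood low for many members at once. Among the 71 members with a mean of at least 9, vehicle 2 was the lowest of the 8 arrays for 34 (47.9%), against 437 of 2502 other genes of that brightness (17.5%). The median deviation of these members from their own mean was −0.14 on vehicle 2 and −0.059 on vehicle 3. It lay between −0.036 and 0.079 on the other 6 arrays. The 2502 other genes were also lowest on vehicle 2, with a median deviation of −0.06 there and −0.012 to 0.043 on the remaining arrays. The 71 common subunits are a set of equal size but not the same genes. The bright members include Atp5if1, Ndufaf3 and Sdhaf1, and lack the subunits Ndufa5, Ndufb8 and Cox5a. Averaged over the 71 common subunits, the log2 values of arrays 1 to 4 were 11.02, 10.79, 10.88 and 10.99 in the vehicle group. They were 11.00, 10.94, 10.99 and 10.98 in the treated group. The treated arrays therefore lay within the range of the vehicle arrays. The Gapdh control, read at its 3′ end minus its 5′ end on the log2 scale as a sign of RNA quality, was 0.224 on vehicle 2 and 0.133 to 0.414 over all arrays.

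**Figure D2:**
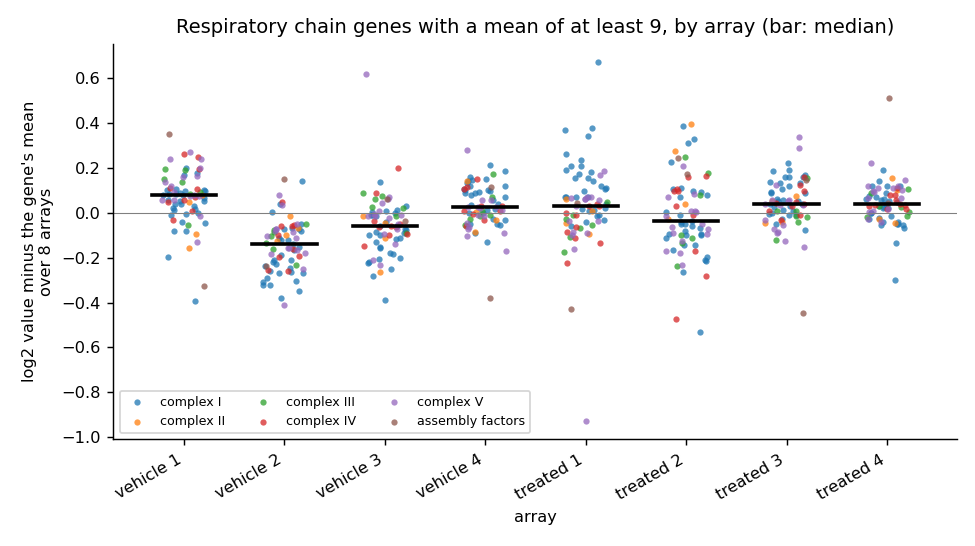
Log2 value of each respiratory chain gene with a mean of at least 9, minus that gene's mean over the 8 arrays (vertical axis), by array; points are genes coloured by complex and bars are medians. The bar of vehicle 2 is at −0.14, and those of the treated arrays lie between −0.036 and 0.042.

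The bright members varied less between arrays than most genes of that brightness. The 71 members with a mean of at least 9 had a median SD within groups of 0.13, with quartiles of 0.104 and 0.156, against 0.256, with quartiles of 0.183 and 0.370, for the 2502 other genes. Their median level was higher, 11.05 against 9.99, and brightness was not matched further. Their median absolute difference was 0.077 against 0.147. The interval lay within 1.5-fold for 67 of these 71 members (94.4%) and for 1426 of the 2502 other genes (57.0%), both figures given as descriptions with no test.

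**Figure D3:**
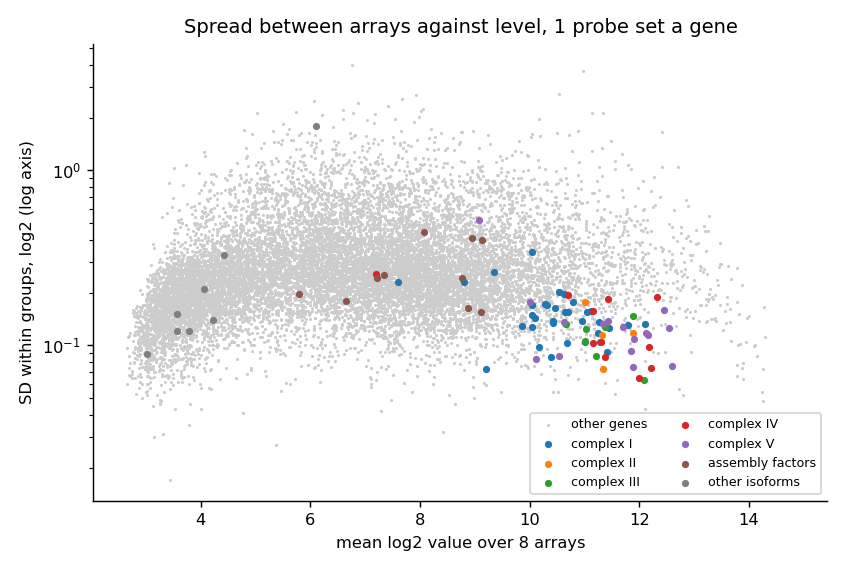
SD within groups on the log2 scale (vertical log axis) against the mean log2 value over 8 arrays (horizontal axis) for 14217 genes, with the 90 respiratory chain genes coloured by complex. Most subunits lie at the lower right, and Cox6a2 is the grey point at a mean of 6.10 and the highest member.

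Complex I, the largest complex and the main entry point of electrons from NADH, had small differences that mostly shared a sign, and none passed the test. Of its 34 measured subunits 28 were higher and 6 lower in treated livers. Of the 2502 other genes with a mean of at least 9, 56.4% were higher. The subunits of complex I had a median difference of 0.086 and a range of −0.06 to 0.30. The median was 0.040 with quantile normalization, 0.139 with median centring and 0.036 without vehicle 2. By hybridization group it was 0.055 for vehicle 1 and treated 1, 0.113 for the group with vehicle 2, and 0.002 for the near-identical arrays. Both arms of the complex had this pattern, with 12 of 16 genes higher in the peripheral arm, which takes electrons from NADH, and 16 of 18 in the membrane arm, which pumps protons (medians 0.083 and 0.086).

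In the peripheral arm, Ndufs1 (1371577_at), which carries iron-sulfur clusters, was measured at 10.27, 10.05, 10.11 and 10.27 in vehicle livers 1 to 4 and at 10.14, 10.07, 10.26 and 10.19 in treated livers 1 to 4. The groups shared the same range, and the difference was −0.01 (95% interval −0.24 to 0.22). Ndufv1 (1371416_at), the subunit that binds NADH, averaged 10.40 ± 0.11 in vehicle livers and 10.38 ± 0.06 after treatment, a difference of −0.02 (−0.25 to 0.20). The differences of Ndufs1 and Ndufv1 turned to 0.04 and 0.03 with median centring. Ndufa9 (1388323_at), an accessory subunit near the quinone site, differed by 0.05 (−0.21 to 0.32). Ndufs8 (1388326_at), another iron-sulfur subunit, had the lowest difference of the complex, −0.06 (−0.45 to 0.34), with treated 2 at 8.81 and the other arrays between 9.26 and 9.60.

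Ndufa6 (1379243_at), an accessory subunit of the LYR family, had the largest difference of the complex. It was at 10.14, 10.31, 10.40 and 10.68 in vehicle livers 1 to 4 and at 10.91, 10.63, 10.69 and 10.49 in treated livers 1 to 4. Vehicle 4 lay among the treated arrays, and the difference was 0.30 with a standard error of 0.14 (interval −0.03 to 0.62, limma adjusted p = 0.979). Ndufs7 (1371912_at), the subunit next to the quinone, was singled out after its values were seen and differed by 0.28 (interval −0.01 to 0.58), with 0.32, 0.31 and 0.19 in the 3 hybridization groups.

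In the membrane arm, Ndufb1 (1373193_at), an accessory subunit, was the gene whose groups did not overlap and was named for that reason. It was at 10.49, 10.15, 10.29 and 10.44 in vehicle livers 1 to 4 and at 10.49, 10.86, 10.53 and 10.52 in treated livers 1 to 4. The highest vehicle and the lowest treated array were equal to 2 decimals, and the difference was 0.26 ± 0.13 (standard error; interval −0.03 to 0.55, limma adjusted p = 0.979). By hybridization group it was 0.00 for vehicle 1 and treated 1, 0.47 for the group with vehicle 2, and 0.10 for the near-identical arrays.

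Complex II oxidizes succinate and is shared by the chain and the citrate cycle, and its 4 subunits differed by 0.08 to 0.15, with 4 of 4 higher and none past the test. Sdha (1367678_at), the flavoprotein that oxidizes succinate, was at 11.05, 10.99, 10.74 and 10.92 in vehicle livers 1 to 4 and at 11.01, 11.40, 10.96 and 10.96 in treated livers 1 to 4. Treated 2 stood above the other 7 arrays, which overlapped, and the difference was 0.15 (−0.15 to 0.45). Sdhb (1372123_at), its iron-sulfur partner, averaged 11.83 ± 0.04 and 11.94 ± 0.16, with treated 2 highest at 12.16 (difference 0.10, interval −0.14 to 0.35). The membrane anchors Sdhc and Sdhd both differed by 0.08.

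Complex III, which moves electrons from coenzyme Q to cytochrome c, had a median difference of −0.011 over the 7 genes of the rule. Of these 2 were higher and 5 lower, and the median turned to 0.042 with median centring. The subunit Cyc1 of this complex, whose symbol is outside the rule, is given below with the other genes of the pathway. Uqcrc1 (1388301_at) and Uqcrc2 (1373362_at), the large core proteins on the matrix side, averaged 11.02 ± 0.13 against 11.00 ± 0.08 and 11.26 ± 0.11 against 11.16 ± 0.06. Their differences were −0.01 (−0.25 to 0.23; 0.04 with median centring) and −0.10 (−0.32 to 0.13). Uqcrfs1 (1371254_at), the Rieske iron-sulfur protein, differed by 0.05 (−0.21 to 0.30; −0.01 with quantile normalization). The extremes of the complex were the small subunits Uqcr11 (1375197_at), at 0.10 (−0.16 to 0.36), and Uqcrh (1371415_at), at −0.10 (−0.35 to 0.16).

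Complex IV, where oxygen is reduced, had a median difference of 0.045 over 11 common subunits, 8 higher and 3 lower, and it was 0.001 with quantile normalization and 0.0 without vehicle 2. Cox4i1 (1367607_at), the general form of the regulatory subunit 4, was at 12.18, 12.05, 12.30 and 12.22 in vehicle livers 1 to 4 and at 12.21, 12.24, 12.26 and 12.23 in treated livers 1 to 4. The treated arrays lay within 0.05 of each other and inside the vehicle range (difference 0.05, interval −0.17 to 0.26). Cox5b (1386887_at) differed by 0.02 (−0.29 to 0.33; −0.02 with quantile normalization), and Cox5a (1375127_at) by 0.15 (−0.24 to 0.53). Cox7a2l (1371337_at), a factor that joins complexes III and IV into supercomplexes, had the lowest difference, −0.17 (−0.48 to 0.15). Treated 2 was at 10.23 and the other 7 arrays lay between 10.73 and 10.90. Cox6a1 (1370861_at), Cox6b1 (1371321_at) and Cox8a (1388113_at) differed by 0.09, −0.09 and 0.00, and Ndufa4 (1371323_at), first described in complex I and now counted with complex IV, by 0.10.

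Complex V, the ATP synthase, had a median difference of 0.010 over 16 genes, 10 higher and 6 lower. It was −0.015 with quantile normalization and −0.019 without vehicle 2. Atp5f1a (1370378_at) and Atp5f1b (1370275_at), the α and β subunits that form the catalytic head, averaged 12.16 ± 0.11 against 12.09 ± 0.13 and 12.49 ± 0.17 against 12.41 ± 0.15. Their differences were −0.07 (−0.32 to 0.18) and −0.08 (−0.36 to 0.21). Atp5pf (1370230_at), of the stalk, was the highest at 0.14 (−0.13 to 0.40). Atp5if1 (1369588_a_at), the inhibitor that keeps the enzyme from splitting ATP when respiration stops, varied more than the subunits it binds. It was at 8.95, 8.67, 9.70 and 9.36 in vehicle livers 1 to 4 and at 8.15, 9.09, 9.42 and 9.30 in treated livers 1 to 4. The groups overlapped throughout, and the difference of −0.18 (−0.89 to 0.53) turned to 0.10 without treated 1. It turned to 0.06 when its 3 probe sets were averaged, where the others were dimmer, with means of 5.65 and 4.23.

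The assembly factors, which help to build the complexes and are not part of them, had a median difference of 0.146, with 8 of 10 genes higher. The median was 0.069 without vehicle 2 and 0.112 without both near-identical arrays. They were dimmer (6 of complex I and 4 of complex II, means from 5.78 to 9.13) and varied more, with a median SD of 0.242 against 0.13 for the 71 common subunits. Sdhaf3 (1372847_at), which helps to mature the iron-sulfur subunit of complex II, was the member with an unadjusted p under 0.05 and a higher level. It was at 7.21, 7.88, 7.63 and 8.31 in vehicle livers 1 to 4 and at 8.79, 8.64, 8.31 and 7.84 in treated livers 1 to 4. Treated 4 lay within the vehicle range and vehicle 4 equalled treated 3, and the level was 1.56-fold higher (difference 0.64, interval 0.03 to 1.25, limma adjusted p = 0.979). By hybridization group the difference was 1.58 for vehicle 1 and treated 1, 0.49 for the group with vehicle 2, and 0.00 for the near-identical arrays. The value of the near-identical arrays is no result about treatment. Ndufaf4 (1389384_at), of complex I assembly, differed by −0.11 (−0.68 to 0.45), with treated 2 at 9.52 and treated 1 at 8.51 as the highest and lowest of all arrays.

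Isoforms and paralogues known mainly from other tissues were dim, apart from Cox6a2. Cox4i2 (1368648_at), the isoform of subunit 4 known from lung and from low oxygen, averaged 3.78 ± 0.15 in vehicle and 3.78 ± 0.08 in treated livers, and Ndufa4l2 (1389018_at), a hypoxia-induced relative of Ndufa4, 3.57 ± 0.11 and 3.55 ± 0.13. Both lay near the 25th percentile of the arrays, which ran from 3.74 to 3.91. Their differences were 0.00 (−0.26 to 0.25; 0.05 with median centring) and −0.02 (−0.27 to 0.23; 0.04 with median centring). Cox7a1 (1374698_at), of heart and muscle, and Cox6b2 (1377097_at), of testis, averaged 4.27 ± 0.13 against 4.18 ± 0.14 and 4.18 ± 0.22 against 3.93 ± 0.19.

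Cox8b (1367739_at), a form of subunit 8 from heart, muscle and brown fat, was the member with an unadjusted p under 0.05 and a lower level. It was at 3.51, 3.74, 3.63 and 3.96 in vehicle livers 1 to 4 and at 3.51, 3.35, 3.47 and 3.31 in treated livers 1 to 4. The highest treated array equalled the lowest vehicle array, all values lay near or below the 25th percentile of the arrays, and the difference was −0.30 (interval −0.58 to −0.02, limma adjusted p = 0.979).

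Cox6a2 (1367782_at), the heart and muscle form of subunit 6a, was the most variable of the 90 genes. It was at 5.23, 4.78, 8.80 and 7.31 in vehicle livers 1 to 4 and at 3.97, 4.47, 7.35 and 6.94 in treated livers 1 to 4, a range of 28.4-fold. Each group held arrays from both ends of this range, and the difference of −0.84 (−3.19 to 1.5) lay between −1.43 and −0.09 when single arrays were left out. Cox6a1, the general form, ranged from 10.97 to 11.33. Of the skeletal muscle markers, 4 of 5 were measured, and their mean was 3.24 to 3.59 on vehicle and 3.29 to 3.55 on treated arrays. Creatine kinase Ckm (1367626_at), a defining muscle gene, was at 3.37 to 4.03 over the 8 arrays. Of the brown fat genes, Ucp1 (1387033_at), which defines that tissue, was at 3.37 to 3.96, and Cidea (1389179_at), a lipid droplet protein, was at 7.88 to 9.29 with a difference of 0.61 (−0.01 to 1.24). The part of muscle or fat cells in the Cox6a2 values was not tested.

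**Figure D4:**
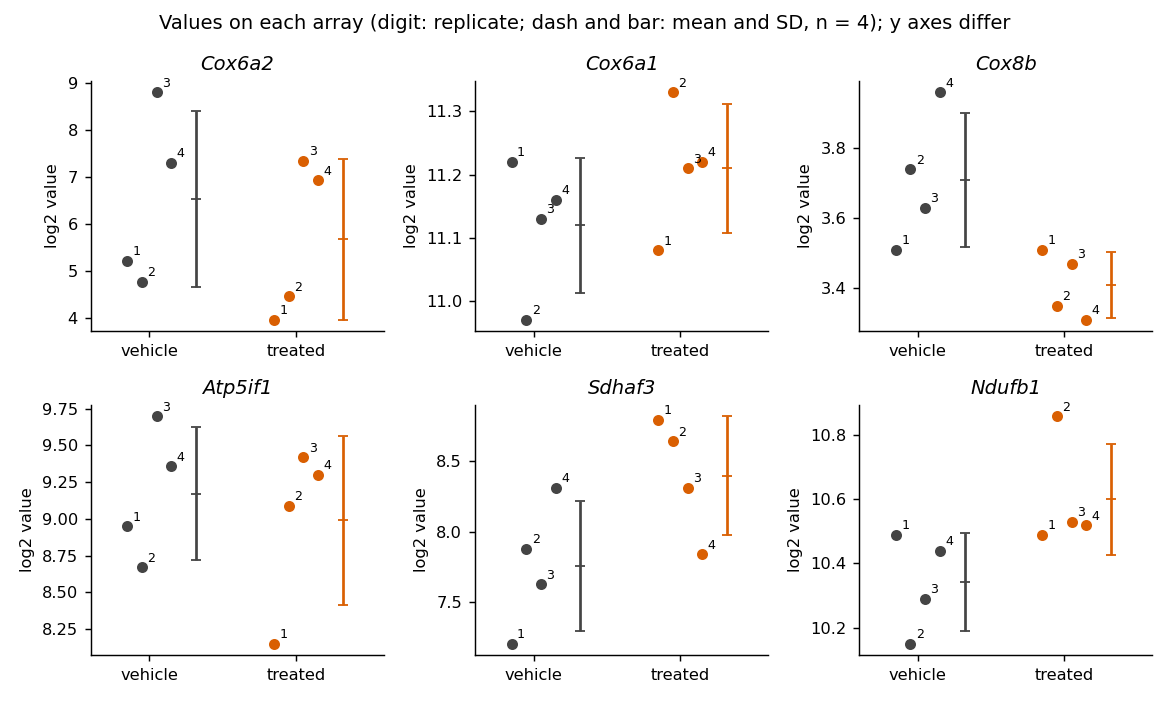
Log2 value on each array (vertical axes, which differ in scale) of 6 genes in the vehicle and treated groups; digits are replicate numbers, and the dash and bar beside the points are the mean and SD (n = 4). Cox6a2 spans 3.97 to 8.80 with high and low arrays in both groups, whereas Cox6a1 stays between 10.97 and 11.33.

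None of the other genes of the pathway passed the test. Of 33 further assembly factors measured, 28 were higher and 5 lower, with a median of 0.098 and 0 past the test. The groups did not overlap for 1 of them, Cox11 (1393099_at), which was named for that reason. It was lower in treated livers (background 0.626% of genes in this direction), with a difference of −0.14 (−0.36 to 0.08). Lrpprc (1373500_at), which stabilizes mitochondrial mRNA, differed by 0.17 (−0.06 to 0.39), Pet100 (1377809_at), of complex IV assembly, by 0.29 (−0.12 to 0.69), and Lyrm7 (1379644_at), of complex III assembly, by 0.25 at a level near 3. Genes of a list around cytochrome c and coenzyme Q had a median of 0.162 over 16 genes, 11 higher and 5 lower. Cytochrome c itself (Cycs) was not measured. The list holds Cyc1 (1371342_at), a subunit of complex III whose symbol is outside the rule, at −0.09 (−0.41 to 0.22). Coq2 (1377598_at), a transferase of coenzyme Q synthesis, differed by 0.32 (−0.02 to 0.66). Coq4 (1389484_at) and the glycerol phosphate dehydrogenase Gpd2 (1369666_at) differed by −0.21 (−0.47 to 0.04) and −0.46 (−1.01 to 0.09). The groups of Coq4 did not overlap, with lower values in treated livers (background 0.626% of genes in this direction).

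Regulators of mitochondrial genes had a median of 0.029 over 19 genes, 11 higher and 8 lower. Sirt3 (1372925_at), the main deacetylase of the mitochondrial matrix, was at 7.59, 7.89, 7.70 and 7.88 in vehicle livers 1 to 4 and at 8.30, 8.15, 7.98 and 8.14 in treated livers 1 to 4. Its groups did not overlap (background 0.992% of genes in this direction), and the difference was 0.37 (0.11 to 0.64, limma adjusted p = 0.979), which did not pass. Polg2 (1375504_at), a subunit of the mitochondrial DNA polymerase, and Mterf1 (1387732_at), a factor that binds mitochondrial DNA, differed by 0.47 (−0.01 to 0.96) and 0.26 (−0.03 to 0.54). The coactivator Ppargc1a (1395518_at), a regulator of mitochondrial number chosen for its known role, was at 8.20, 6.02, 7.17 and 5.27 in vehicle livers 1 to 4 and at 5.61, 6.56, 5.62 and 6.90 in treated livers 1 to 4. It varied widely in both groups while the 71 common subunits averaged between 10.79 and 11.02 on the same arrays.

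Mitochondrial carriers had a median of −0.035 over 15 genes, and citrate cycle genes one of −0.008 over 18. Slc25a4 (1388112_at), the adenine nucleotide carrier of heart and muscle, and Ucp2 (1368669_at), an uncoupling protein relative found in macrophages, differed by −0.85 (−2.03 to 0.34) and −0.77 (−1.71 to 0.16). Both were lowest on treated 1, at 6.78 and 6.34. On that array the macrophage genes averaged 8.10, the hepatocyte genes 12.94, the bile duct genes 6.29 and the T and B cell genes 4.51. Each of these lists was lowest on treated 1. The stellate cell and myofibroblast genes averaged 7.59 there and were lowest on treated 2, at 7.26. The part of any of these cells in the values of Slc25a4 and Ucp2 was not tested. Slc25a13 (1389622_at), the aspartate and glutamate carrier of hepatocytes, differed by 0.46 (−0.07 to 0.98). In the citrate cycle list Pdhb (1371388_at), of pyruvate dehydrogenase, differed by −0.33 (−0.66 to −0.01), Suclg2 (1373017_at), of succinyl-CoA ligase, by 0.32 (−0.04 to 0.69), and Pc (1386917_at), pyruvate carboxylase, by 0.36 (−0.20 to 0.91).

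Promoters of nuclear respiratory chain genes are known for sites of the activators NRF1, GABPA and YY1. Whether such sites go with the low values on vehicle 2 was not tested. RefSeq promoter sequences on the rat build GRCr8, from 250 bases before to 50 after the gene start, were found for 82 of the 90 genes. The NRF1 letters, GCGCA and GCGC with any base between them, read on both strands, where matches can overlap and a palindromic match counts once, stood in 17 of the 82 (20.7%), in 8.41% of the promoters of 11618 other genes on the array and in 4.71% of all 27457. The YY1 letters, CCGCCAT and TT with any base between them, stood in 15 (18.3%), against 3.28% and 1.83%, and the GABPA letters CCGGAAG in 25 (30.5%), against 14.9% and 9.22%. The other letters searched included the ERR element TCAAGGTCA, in 2 members (2.44%) against 0.198% and 0.412%. The others were the E-box CACGTG, in 6 (7.32%) against 8.95% and 6.65%, and the TATA box TATAAA, in 8 (9.76%) against 8.44% and 14.3%. The letters were chosen after the promoters were seen, so that these shares are descriptions and no test of an excess. Base composition was not matched, and a match shows letters and not a bound site.

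In the windows below the capitals mark the NRF1 letters, which in Uqcrc1 are read on the opposite strand, and the genes are given as an example from each of several complexes.
Ndufa11 (chr9:1637507-1637536, plus strand): cctgcgctgtGCGCATGCGCatgcgcacag
Sdha (chr1:30764497-30764526, plus strand): ggagcgtgttGCGCAGGCGCagagccttcc
Uqcrc1 (chr8:118468149-118468178, plus strand): cttccttacaGCGCCTGCGCctcatactcc
Atp5po (chr11:44657523-44657552, minus strand): acgccgacgcGCGCATGCGCtctggcatca
Sdhaf3 (chr4:36066935-36066964, plus strand): ccgaccttctGCGCAGGCGCggctggtcga
Of the 20 NRF1 matches, 18 lay before the gene start and 18 within 100 bases of it. Sdha had 3 of them, and in Sdhaf3 the match began 18 bases before the start.

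In the next windows the capitals mark the YY1 letters, here read on the opposite strand, so that they appear as AAGATGGCGG or AAAATGGCGG.
Ndufa6 (chr7:115750283-115750312, minus strand): cttccttagcAAGATGGCGGccgcggccag
Ndufs7 (chr7:10110475-10110504, minus strand): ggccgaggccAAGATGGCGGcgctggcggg
Sdhb (chr5:158547941-158547970, plus strand): gtcaggagccAAAATGGCGGcggtggtcgg
Uqcrc1 (chr8:118468212-118468241, plus strand): cggaagttagAAGATGGCGGcgtccgcagt
Of the 15 YY1 matches, 5 began before the gene start and the others after it, and 13 lay within 100 bases of it. Their median start was 5 bases after the gene start, where NRF1 matches had a median start 42 bases before it. Genes with a YY1 match had a median treated minus vehicle difference of 0.10 and the other members 0.05. For the NRF1 letters the medians were 0.08 against 0.05, and for the GABPA letters 0.06 against 0.05. With the ERR element, in 2 members, the median was −0.02, with the E-box, in 6, 0.0 and with the TATA box, in 8, 0.03. Each stood against 0.05 without it. These medians are descriptions and were not tested.

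Second probe sets were available for 10 of the genes. Both probe sets of Ndufv3 lay in the same direction, at 0.28 (1368566_a_at) and 0.34 (1368567_at), as did those of Uqcrc2 (−0.10 and −0.15) and Sdhd (0.08 and 0.09). Those of Ndufa7 were at 0.23 (interval −0.05 to 0.51) and 0.36 (−0.06 to 0.77). The probe sets of Atp5if1 were at −0.18, 0.14 and 0.23 and did not share a direction, nor did those of Ndufa9 (0.05 and −0.07) and Atp5po (0.01 and −0.09). Their further probe sets were dim. The means over the arrays were 9.08, 5.65 and 4.23 for Atp5if1, 10.42 and 3.46 for Ndufa9, and 11.34 and 4.37 for Atp5po. A difference in direction at such low levels says little about these genes.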

How the data were processed

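Liver RNA of 4 vehicle and 4 treated rats was hybridized to Affymetrix Rat2302 arrays, 1 per sample, and samples were grouped by title. The submitters' processing notes name affy and RMA, without versions, and the authors deposited log2 values, as the range of the values shows. RMA draws small differences of dim probe sets towards 0. Labelling from the 3′ end makes a signal depend on RNA integrity. The number of arrays limits the precision. The labels do not say more of how replicates were taken, so that p-values measure the spread between these samples.

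The 57 control probe sets were left out, and limma (version 3.58.1, R 4.3.3) was fitted to the other 31042 on 8 arrays with no covariates and Benjamini-Hochberg adjustment. Probe sets were named by the platform annotation, in which 20826 had 1 symbol, 436 several and 9780 none listed. The procedure was tested on simulated data. Members, gene lists and alternatives were chosen with earlier results of these data known. Named were 13 fixed core subunits, 11 fixed isoforms, the highest and lowest difference in each complex at a mean of at least 6, members with an unadjusted p under 0.05 and up to 3 genes of each pathway list. Motif letters were chosen after the promoters were seen. Numbers do not pair the arrays: same-numbered deviations correlated at −0.11, 0.04, −0.12 and −0.62.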

Additional observations from a re-analysis of the deposited data

Results flagged for a closer look

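Among the 80 groups of 4 values examined, 3 held an array far from the others by Dixon's criterion, and chance gives about 1 in 20 groups. Sdha stood at 11.40 on treated 2, where the other treated arrays lay between 10.96 and 11.01. Cox7a2l stood at 10.23 on treated 2, with the others between 10.73 and 10.78, and at 10.90 on vehicle 3, with the others between 10.73 and 10.75.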

How the results depend on the processing

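No respiratory chain gene was called under any of the 17 alternatives to the reported fit, at an adjusted p of 0.05. Over all probe sets 0 were called, except 3 without both near-identical arrays and, when single arrays were left out, 0 to 11, with 11 without vehicle 4. The median difference of the 90 genes, 0.05, ran from 0.009 with quantile normalization to 0.104 with median centring. With the replicate number as a block it was 0.05, with 0 probe sets called. For 32 named members the sign was kept in 460 of 507 values and turned in 47, over 13 genes. It turned with quantile normalization for Cox5b (−0.02), Uqcrfs1 (−0.01) and Cox8a (−0.04). With median centring it turned for Ndufs1 (0.04), Ndufv1 (0.03), Uqcrc1 (0.04), Cox4i2 (0.05) and Ndufa4l2 (0.04), and with array weights for Ndufs1 (0.01), Cox4i2 (0.00) and Ndufa4l2 (0.01). Without both near-identical arrays it turned for Uqcrc1 (0.00), Cox4i2 (0.03) and Ndufa4l2 (0.00). With the mean of probe sets it turned for Ndufa9 (−0.01) and Atp5if1 (0.06), whose further probe sets were dim, with means from 3.46 to 5.65. When single arrays were left out, differences ran from −0.05 to 0.03 for Ndufv1, −0.01 to 0.10 for Uqcrfs1, −0.32 to 0.03 for Ndufaf4, −0.06 to 0.04 for Ndufa4l2, −0.15 to 0.11 for Ndufs8, −0.35 to 0.10 for Atp5if1, −0.03 to 0.04 for Cox8a, 0.00 to 0.08 for Cox4i1, −0.05 to 0.04 for Uqcrc1, −0.06 to 0.06 for Cox4i2, −0.01 to 0.11 for Ndufa9, −0.06 to 0.10 for Cox5b and −0.05 to 0.02 for Ndufs1. The cause of these turns was not tested, and all concern differences smaller than their standard errors.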
